A study of Mus musculus with 18 samples.

Results

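Interferon-induced genes and the factors that regulate them were followed in mouse cortex after stroke. Members were taken by gene name from the deposited expression table, as symbols of the Ifi, Ifit, Ifitm, Irf, Oas, Gbp, Irgm, Mx and Isg families together with Ifih1, Igtp, Iigp1, Rsad2, Usp18, Rtp4, Bst2, Xaf1, Ddx58, Cmpk2 and Zbp1. The names gave 84 genes of 37319 in the table, and no measured value was used to choose them. The name pattern also took 3 IRF2-binding proteins (Irf2bp1, Irf2bp2 and Irf2bpl), which are partners of an interferon regulatory factor and not interferon regulatory factors themselves.

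RNA was measured by poly(A) RNA-seq in cortex on the side of the occlusion, from male C57BL/6J mice (strain C57BL/6 in the sample labels) of 8 to 10 weeks. All mice had an adeno-associated virus in the left lateral ventricle 4 weeks before surgery. In the Tiparp arm it was AAV-SYN-shRNA-TIPARP, which carries a short hairpin RNA against Tiparp, and in the control arm it was AAV-SYN-shRNA-Con; the synapsin promoter restricts either hairpin mostly to neurons, so other cortical cells were not its intended target. Surgery was sham or tMCAO, a transient block of the middle cerebral artery, and tMCAO mice were sacrificed after 24 h or 28 d. The 6 groups of 3 libraries are Sham_T and Sham_C, R24h_T and R24h_C, and R28d_T and R28d_C, where T is the Tiparp arm and C the control arm. Whether each library is a separate mouse is not given in the labels, and p-values refer to the spread between libraries, which may in part be technical.

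Interferons are secreted proteins that alert neighbouring cells to viruses and tissue damage. They bind receptors that act through JAK kinases on STAT factors; with IRF9 these switch on genes through a promoter element called the interferon-stimulated response element, whereas interferon gamma acts largely through another element, GAS. The products sense nucleic acids, block translation and membrane fusion, take apart pathogen vacuoles, or, as interferon regulatory factors (IRFs), turn on further genes. In brain, microglia, astrocytes, endothelial cells and infiltrating leukocytes can all carry this response.

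The response element core is shown here because it is the sequence that many members have in common, although the names and not the promoters chose them. Promoter sequences, from RefSeq on GRCm38.p6, ran from 250 bases before to 50 bases after each gene's start and were matched by symbol for 62 of the 84 members. The core, which is GAAA, any 2 bases and GAAA again, searched on both strands with overlaps allowed, was present in 32 of these 62 promoters (51.6%), against 1079 of all 27025 promoters (3.99%). It was present in 2 of 2 nucleic acid sensor promoters, 5 of 6 IFIT, 4 of 4 guanylate-binding protein, 8 of 10 PYHIN and 3 of 4 immunity-related GTPase promoters. It was present in 4 of 8 OAS promoters and in 3 of 7 promoters of the MX and ISG group. It was present in 2 of 7 IFITM promoters, in 1 of 8 IRF promoters, and in 0 of 3 promoters each of the other Ifi genes and the IRF2-binding proteins. The GAS letters TTCNNNGAA were present in 16 of the 62 (25.8%), against 9.55% of all promoters. Family members arose by duplication and share promoter sequence, so these counts are not independent, and a match of letters does not show that a factor binds.

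Stretches around the core are printed below for members whose values are given further on, 5′ to 3′ on the gene's strand, with all matches to the core, in either orientation, in capitals (TTTC, any 2 bases and TTTC is the core on the opposite strand). The regions are Isg15 chr4:156200855-156200916 on the minus strand, Ifit1 chr19:34640765-34640814 on the plus strand, Oas1a chr5:120907526-120907565 on the minus strand, Bst2 chr8:71537567-71537622 on the minus strand, Gbp2 chr3:142620584-142620633 on the plus strand and Gbp3 chr3:142559979-142560034 on the plus strand. The others are Irgm1 chr11:48871421-48871470 on the minus strand, Igtp chr11:58199502-58199551 on the plus strand, Ifitm2 chr7:140955978-140956027 on the minus strand, Ifi207 chr1:173741821-173741870 on the minus strand and Ifi211 chr1:173913054-173913103 on the minus strand.
Isg15: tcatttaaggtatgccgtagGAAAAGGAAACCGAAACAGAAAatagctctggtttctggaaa
Ifit1: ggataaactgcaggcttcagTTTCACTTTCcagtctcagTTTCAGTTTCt
Oas1a: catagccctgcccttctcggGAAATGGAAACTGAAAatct
Bst2: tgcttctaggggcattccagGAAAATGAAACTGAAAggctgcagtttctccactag
Gbp2: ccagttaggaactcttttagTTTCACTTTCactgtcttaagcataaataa
Gbp3: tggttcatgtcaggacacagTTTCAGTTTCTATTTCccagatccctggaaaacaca
Irgm1: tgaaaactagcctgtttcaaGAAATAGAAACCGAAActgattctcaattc
Igtp: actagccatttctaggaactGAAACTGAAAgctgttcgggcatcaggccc
Ifitm2: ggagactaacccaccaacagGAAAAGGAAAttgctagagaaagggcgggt
Ifi207: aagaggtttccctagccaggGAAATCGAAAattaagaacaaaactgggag
Ifi211: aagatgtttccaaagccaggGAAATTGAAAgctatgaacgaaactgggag
Isg15 held 3 overlapping cores in a row and Gbp2, Igtp, Ifitm2, Ifi207 and Ifi211 held 1 each. The printed stretches all lie upstream of the gene start.

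Values are FPKM, a level scaled to transcript length and library size, and differences are on the log2(FPKM + 1) scale, which understates the change of low genes. A gene was tested if it reached 1 FPKM in at least 3 libraries of a comparison, with limma and Benjamini-Hochberg adjustment over all such genes at 0.05. Of the 84 members 24 stayed under 1 FPKM in every library, 31 were tested in no comparison and 53 were tested at 24 h over both arms. Of these 53, 29 reached 1 FPKM in fewer than 3 sham libraries, so they entered the test through the libraries where they are high and a rise was favoured beforehand. The count over the 53 therefore does not describe all members. Among the 29 were all tested nucleic acid sensors, OAS, guanylate-binding protein and PYHIN genes. The others were Ifit1, Isg15, Usp18, Rsad2, Rtp4, Iigp1, Irgm2, Ifitm6, Ifitm7, Ifi27l2a, Ifi35, Irf7 and Irf8. Counts by class given below include them. Of the 24 that reached 1 FPKM in at least 3 sham libraries, 16 were higher at 24 h, beside 16.2% of all such genes.

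Transcripts of the choroid plexus were high in 4 libraries: the transthyretin gene Ttr was at 624, 501, 712 and 1682 FPKM in Sham_T1, Sham_T2, R28d_T2 and R24h_C3, and at 0.892 to 81.9 FPKM in the other libraries. Cortical markers were present in all 18 libraries, with a neuronal marker sum of 419 FPKM in R24h_C3 and 716 to 929 FPKM in the other libraries. R24h_C3, also the highest in Ttr, thus stood apart in tissue content. Tiparp itself was at 3.99, 5.00 and 3.01 FPKM in R24h_T and at 6.66, 4.60 and 8.65 FPKM in R24h_C, a difference of -0.60 (exact two-sided permutation p = 0.2, n = 3 each; the smallest p possible is 0.1). It differed by 0.06 between the arms in sham (p = 0.6, exact permutation test, n = 3 each) and by 0.00 at 28 d (p = 1). The group labels of the arms are therefore not checked by a lower Tiparp level in cortex as a whole. FPKM values hold no read totals, so depth is unknown.

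At 24 h after tMCAO most of the tested interferon-induced genes were higher than in sham. Over both arms, 44 of the 53 tested members rose and 0 fell, beside 19.3% of all 14589 genes tested that rose. In 38 of the 53 every one of the 6 libraries at 24 h lay above every one of the 6 sham libraries, which was the case for 8.19% of all genes. The median difference was 0.91 over the 53 members and 0.10 over all genes. These values include the 29 members that entered the test through the 24 h libraries, for which a rise was favoured beforehand. Of the 24 that reached 1 FPKM in at least 3 sham libraries, 16 rose, beside 16.2% of all such genes. When libraries were scaled to equal median ratios the median of all genes shifted by -0.10, the calls over all genes became 1740 higher and 1389 lower, against 2812 higher and 785 lower as deposited, and 40 of 51 members tested rose. The call was lost under that scaling in Isg20l2 and Ifitm10, while Zbp1 and Oas1a were no longer tested.

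**Figure D1:**
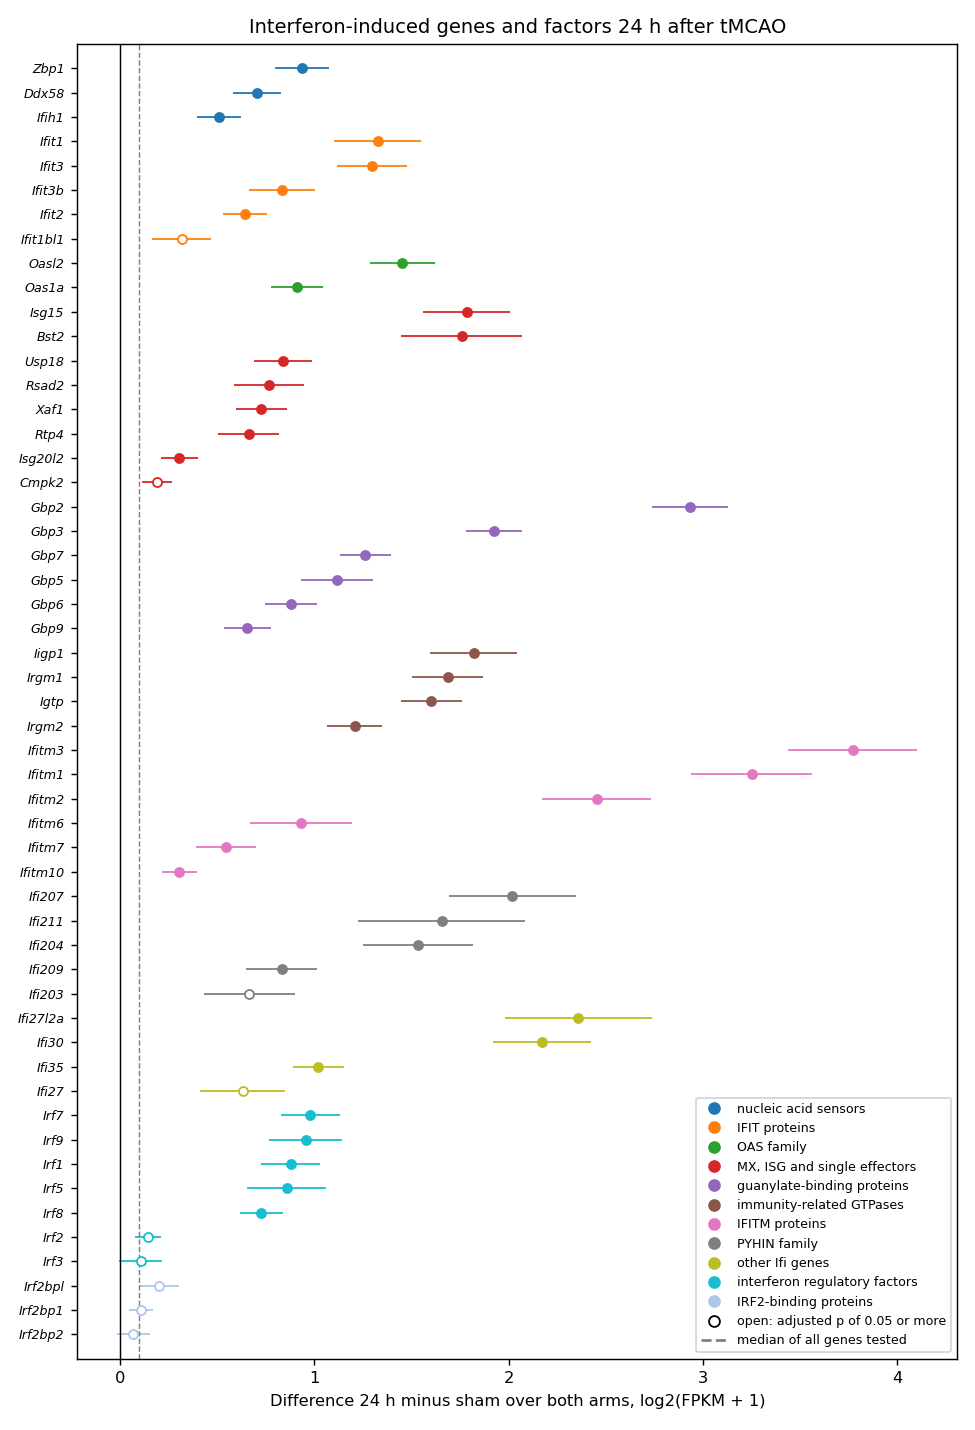
Difference between 24 h after tMCAO and sham over both arms for each of the 53 members tested, in log2(FPKM + 1) with standard errors (6 libraries each), ordered and coloured by role class; filled points are the 44 members that passed, open points the others, and the dashed line is the median of all genes tested. The IFITM protein Ifitm3 lies farthest to the right at 3.77, and the IRF2-binding proteins, Irf2 and Irf3 lie near the median of all genes.

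The 3 nucleic acid sensors rose. All 3 were under 1 FPKM in every sham library, so they entered the test through the 24 h libraries and a rise was favoured beforehand. Ddx58 encodes RIG-I and Ifih1 encodes MDA5, helicases that detect viral RNA in the cytoplasm, and Zbp1 encodes a sensor of left-handed nucleic acids that can trigger necroptosis. Zbp1 ranged from 0.389 through a median of 1.01 to 1.68 FPKM at 24 h, against 0 to 0.052 FPKM in sham (difference 0.94 ± 0.14, SE; adjusted p = 0.0012). Ddx58, the sensor with the highest mean level, ranged from 0.680 to 1.83 FPKM with a median of 1.72 at 24 h, against 0.437 to 0.585 FPKM with a median of 0.518 in sham (0.70 ± 0.12, adjusted p = 0.00311). For both genes all 24 h libraries lay above all sham libraries. Ifih1 rose by 0.51, with R24h_T3 at 0.483 FPKM inside the sham range.

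Of the 6 IFIT genes, whose products bind viral RNA and hold back its translation, 5 were tested and 4 rose. Ifit1 reached 1 FPKM in fewer than 3 sham libraries, so it entered the test through the 24 h libraries and a rise was favoured beforehand. Ifit1 was at 2.31, 4.14 and 1.16 FPKM in R24h_T and at 4.82, 2.23 and 2.99 FPKM in R24h_C, against 0.730, 0.998 and 0.265 FPKM in Sham_T and 0.392, 0.480 and 0.234 FPKM in Sham_C. The groups did not overlap, and the lowest 24 h library was R24h_T3 (1.33 ± 0.22, adjusted p = 0.00244). Ifit3 was at 10.9, 12.2 and 6.33 FPKM in R24h_T and at 17.2, 8.73 and 12.7 FPKM in R24h_C, against 3.99, 4.51 and 4.07 FPKM in Sham_T and 3.67, 3.73 and 3.11 FPKM in Sham_C (1.30 ± 0.18, adjusted p = 0.00096). Its near copy Ifit3b differed by 0.83 and Ifit2 by 0.64, both called. In GENCODE M21 transcripts 51.2% of the 50-base words of Ifit3 also occur in another gene, and 45.0% of those of Ifit3b, so reads could be split between the pair. Ifit1bl1 did not pass (0.32, adjusted p = 0.14).

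Of the 12 genes of the OAS family, enzymes that make 2-5A and so activate RNase L, or enzymatically inactive relatives of them, only Oasl2 and Oas1a were tested, and both rose. Both were under 1 FPKM in every sham library, so they entered the test through the 24 h libraries and a rise was favoured beforehand. Oasl2 was at 2.05, 3.18 and 1.04 FPKM in R24h_T and at 3.69, 1.92 and 2.72 FPKM in R24h_C, against 0.256, 0.237 and 0.234 FPKM in Sham_T and 0.212, 0.130 and 0.194 FPKM in Sham_C (1.45 ± 0.17, adjusted p = 0.000407). No 24 h library came near the sham libraries. Oas1a was at 0 FPKM in 4 of the 6 sham libraries and between 0.372 and 1.39 FPKM at 24 h (0.91, adjusted p = 0.00123), and it shares 57.6% of its 50-base words with other Oas1 genes. The other OAS genes were below the filter; Oasl1 and Oas1b reached 1.04 and 1.28 FPKM at most, both in R24h_C1, Oas1c reached 1.26 FPKM in R24h_T1, and Oas2, Oas3 and Oas1d to Oas1h stayed under 1 FPKM.

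Among the effectors of the MX and ISG group, 8 of 11 were tested and 7 rose. Isg15, Usp18, Rsad2 and Rtp4 reached 1 FPKM in fewer than 3 sham libraries, so they entered the test through the 24 h libraries and a rise was favoured beforehand. Isg15 encodes a ubiquitin-like protein that is attached to other proteins, and it was at 2.71, 6.54 and 2.37 FPKM in R24h_T and at 7.71, 3.20 and 5.65 FPKM in R24h_C, against 0.792, 0.694 and 0.463 FPKM in Sham_T and 0.405, 0.436 and 0.534 FPKM in Sham_C. All 24 h libraries lay above all sham libraries (1.78 ± 0.22, adjusted p = 0.000687). Bst2 encodes tetherin, which holds budding virus at the membrane, and it ranged from 3.37 to 14.3 FPKM with a median of 6.82 at 24 h, against 0.661 to 2.91 FPKM with a median of 1.27 in sham (1.76 ± 0.31, adjusted p = 0.00311). Usp18, the protease that removes ISG15 and damps receptor signalling, rose by 0.84, the viperin gene Rsad2 by 0.77, the pro-apoptotic Xaf1 by 0.73, the chaperone gene Rtp4 by 0.66 and Isg20l2, an exonuclease gene named for its likeness to Isg20, by 0.30. Cmpk2, a mitochondrial nucleotide kinase, did not pass (0.19, adjusted p = 0.0916). The exonuclease gene Isg20 reached 1.06 FPKM in R24h_C1 and was not tested. The GTPases Mx1 and Mx2, which block viral nucleocapsids, stayed under 1 FPKM in every library; their highest values, 0.721 and 0.972 FPKM, were both in R24h_T2.

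All 6 tested guanylate-binding protein genes, of 10 in the table, rose. All 6 genes were under 1 FPKM in every sham library, so they entered the test through the 24 h libraries and a rise was favoured beforehand. These GTPases coat and break open the vacuoles or membranes of intracellular pathogens and are known as strong targets of interferon gamma. Gbp2 was at 6.15, 12.3 and 5.65 FPKM in R24h_T and at 13.5, 12.7 and 10.9 FPKM in R24h_C, against 0.485, 0.538 and 0.624 FPKM in Sham_T and 0.195, 0.302 and 0.289 FPKM in Sham_C. Each 24 h library was several times above the highest sham library (2.94 ± 0.20, adjusted p = 2.26e-05). Gbp3 differed by 1.92, Gbp7 by 1.26, Gbp5 by 1.11, Gbp6 by 0.88 and Gbp9 by 0.66. Gbp6 shares 70.7% of its 50-base words with other genes, so its value is uncertain. Gbp4 reached 1.87 FPKM in R24h_C2 alone and was not tested, and Gbp8, Gbp10 and Gbp11 stayed under 1 FPKM.

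The 4 tested immunity-related GTPases rose as well, and Ifi47, the other, was below the filter. These relatives of the guanylate-binding proteins, a family much larger in mouse than in human, act on parasite vacuoles and on autophagy. Iigp1 ranged from 1.26 to 7.17 FPKM with a median of 3.20 at 24 h, against 0.148 to 0.235 FPKM with a median of 0.205 in sham (1.82 ± 0.22, adjusted p = 0.000662). Igtp, the most abundant, was at 8.60, 7.01 and 4.06 FPKM in R24h_T and at 9.54, 8.86 and 6.64 FPKM in R24h_C, against 1.8, 2.14 and 1.64 FPKM in Sham_T and 1.67, 1.46 and 1.58 FPKM in Sham_C (1.60 ± 0.16, adjusted p = 0.000195). The groups stood apart, again with R24h_T3 lowest of the 24 h libraries. Irgm1 rose by 1.69 and Irgm2 by 1.21. Iigp1 and Irgm2 reached 1 FPKM in fewer than 3 sham libraries, so they entered the test through the 24 h libraries and a rise was favoured beforehand.

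The IFITM genes encode small membrane proteins that stop viruses from fusing with the cell, and 6 of 7 were tested, all of which rose. Ifitm3 showed the highest difference of all members: it was at 68.9, 53.9 and 16.7 FPKM in R24h_T and at 91.7, 60.0 and 92.4 FPKM in R24h_C, against 3.45, 4.23 and 3.86 FPKM in Sham_T and 2.57, 2.46 and 2.96 FPKM in Sham_C (3.77 ± 0.33, adjusted p = 9.61e-05). R24h_T3 was far below the other 24 h libraries and still above all sham libraries. Ifitm2, with the highest mean level, ranged from 19.7 to 93.2 FPKM with a median of 72.0 at 24 h, against 7.21 to 11.6 FPKM with a median of 10.2 in sham (2.46 ± 0.28, adjusted p = 0.000387). It shares 48.5% of its 50-base words with pseudogenes and other loci. Ifitm1 differed by 3.25 and Ifitm6 by 0.93, while the calls of Ifitm7 (0.54), Ifitm10 (0.31) and Ifitm6 were each lost when 1 of several single libraries was left out. Ifitm5, known from bone, stayed under 1 FPKM. Ifitm6 and Ifitm7 reached 1 FPKM in fewer than 3 sham libraries, so they entered the test through the 24 h libraries and a rise was favoured beforehand.

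The PYHIN genes of the Ifi200 cluster encode DNA-binding proteins, some of which sense DNA or regulate transcription. Of the 12 members 5 were tested and 4 rose, and 7 were below the filter. All 5 were under 1 FPKM in every sham library and entered the test through the 24 h libraries, where they are high. Ifi207 was at 3.84, 4.83 and 0.363 FPKM in R24h_T and at 5.49, 2.15 and 6.08 FPKM in R24h_C, against 0.0873, 0.0447 and 0 FPKM in Sham_T and 0, 0.0695 and 0.0340 FPKM in Sham_C (2.02 ± 0.33, adjusted p = 0.00201). R24h_T3 was about an order of magnitude under most other 24 h libraries. Ifi211 differed by 1.66, Ifi204 by 1.53 and Ifi209 by 0.83, and Ifi203 did not pass (0.67, adjusted p = 0.0568). The 24 h range of Ifi211, from 0.356 to 7.95 FPKM, was the widest of the class, and 72.8% of its 50-base words occur in other genes.

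Of the remaining Ifi genes 4 of 6 were tested and 3 rose. Ifi27l2a and Ifi35 reached 1 FPKM in fewer than 3 sham libraries, so they entered the test through the 24 h libraries and a rise was favoured beforehand. Ifi30 encodes GILT, a lysosomal thiol reductase of antigen processing, and was at 20.5, 11.6 and 6.30 FPKM in R24h_T and at 27.7, 14.2 and 19.5 FPKM in R24h_C, against 2.44, 2.68 and 3.19 FPKM in Sham_T and 2.18, 2.64 and 2.44 FPKM in Sham_C (2.17 ± 0.25, adjusted p = 0.000419). The groups did not overlap. Ifi27l2a, a small interferon-induced membrane protein gene, ranged from 2.67 to 22 FPKM with a median of 10.8 at 24 h, against 0.879 to 1.64 FPKM with a median of 0.977 in sham (2.36 ± 0.38, adjusted p = 0.00197). Ifi35 rose by 1.02. Ifi27 differed by 0.63 with an adjusted p of 0.0538, and Ifi27l2b and Ifi44 stayed under 1 FPKM.

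Of the 9 IRF genes 7 were tested and 5 rose. Irf7 and Irf8 reached 1 FPKM in fewer than 3 sham libraries, so they entered the test through the 24 h libraries and a rise was favoured beforehand. Irf7, the regulator that amplifies type I interferon production, was at 1.29, 2.03 and 0.475 FPKM in R24h_T and at 1.84, 1.12 and 1.22 FPKM in R24h_C, against 0.153, 0.170 and 0.188 FPKM in Sham_T and 0.207, 0.119 and 0.0790 FPKM in Sham_C (0.98 ± 0.15, adjusted p = 0.00168). Irf9, a DNA-binding part of the complex that type I interferon activates, averaged 4.54 ± 1.78 FPKM at 24 h and 1.74 ± 0.38 FPKM in sham (SD, n = 6 each), a difference of 0.96. Irf1, a transcription activator that interferon gamma induces, averaged 3.19 ± 1.16 and 1.21 ± 0.15 FPKM (0.88), Irf5, a factor of myeloid cells downstream of Toll-like receptors, 3.49 ± 1.76 and 1.34 ± 0.17 FPKM (0.86), and Irf8, which microglia and other myeloid cells need, 1.62 ± 0.44 and 0.567 ± 0.068 FPKM (0.73), in 24 h and sham libraries; all 5 factors passed.

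Irf3 and Irf2 did not pass. Irf3, a factor that is present beforehand and activated by phosphorylation, was the most abundant IRF by mean level over all libraries, at 2.80, 3.65 and 3.61 FPKM in R24h_T and at 4.51, 3.31 and 5.58 FPKM in R24h_C, against 3.30, 3.27 and 3.85 FPKM in Sham_T and 3.38, 3.29 and 3.91 FPKM in Sham_C (0.11 ± 0.11, adjusted p = 0.507). Irf2, which competes with IRF1 for its sites, averaged 3.78 ± 0.34 FPKM at 24 h and 3.33 ± 0.37 FPKM in sham (0.14, adjusted p = 0.14). Irf4, known from lymphocytes, stayed under 0.5 FPKM in every library. The 3 IRF2-binding proteins did not pass either, with differences of 0.07 to 0.20; Irf2bpl ranged from 13.6 to 22.4 FPKM at 24 h and from 14.4 to 17.4 FPKM in sham.

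**Figure D2:**
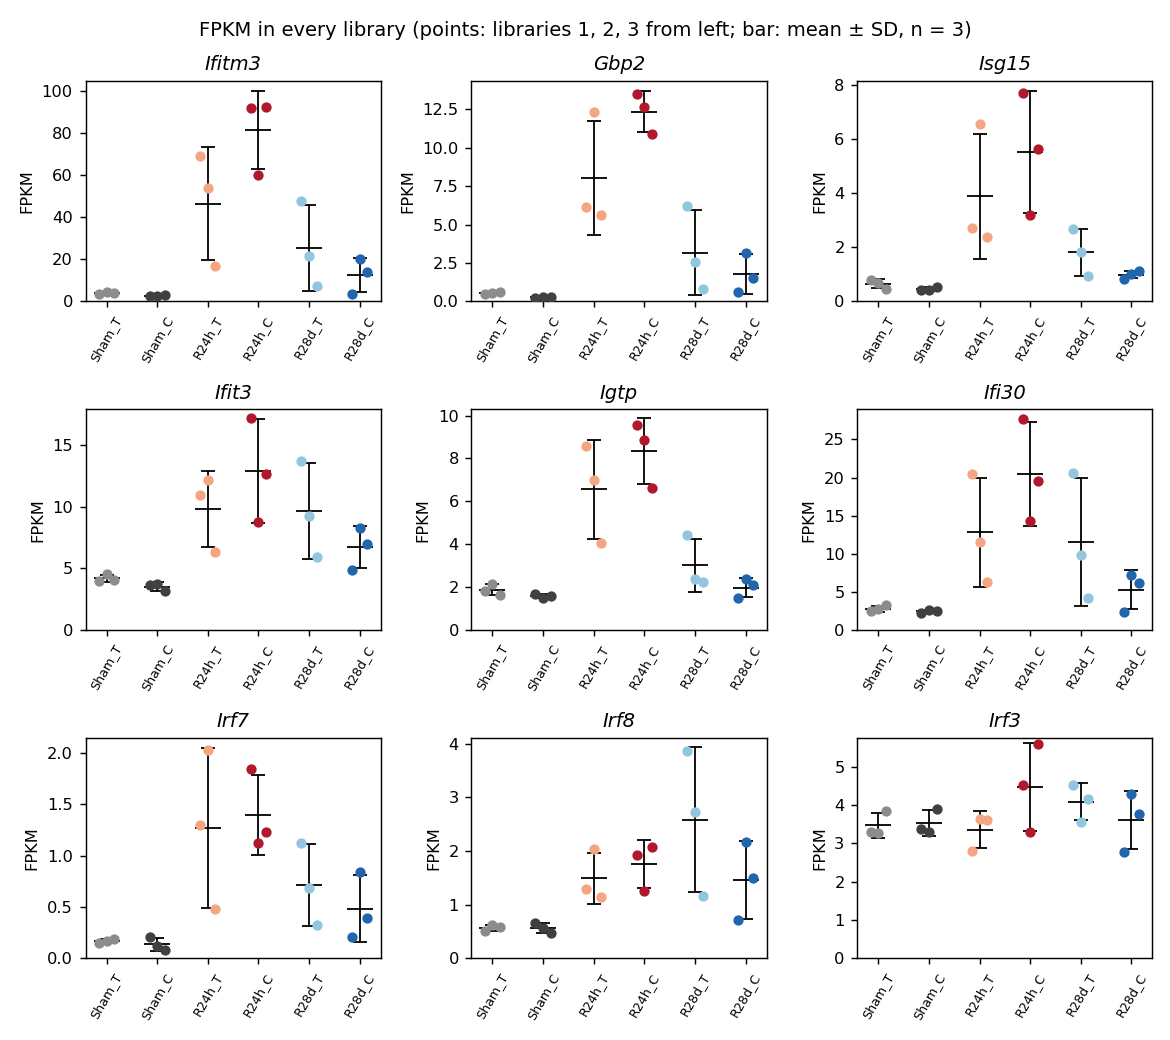
FPKM of 9 members in each of the 18 libraries, by group on the x axis with the Tiparp arm left of the control arm; points are libraries 1, 2 and 3 from left to right and bars are means ± SD (n = 3). Ifitm3, Gbp2 and Isg15 are high at 24 h and lower at 28 d, Irf8 reaches its highest value, 3.86 FPKM, in R28d_T1, and Irf3 lies between 2.78 and 5.58 FPKM in all groups.

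Members with the response element core in the promoter had a median difference of 1.30 at 24 h (23 tested) and those without it 0.73 (21 tested), which is a description, because families share both sequence and level. Both sets include members that entered the test through the 24 h libraries, where they are high. The medians were not split by this, so no conclusion is drawn from their difference. The core was in 20 of 36 promoters of members that rose, in 3 of 8 of members that were tested and did not pass, and in 9 of 18 of members not tested. It was in 3.99% of all promoters, and its share among all genes that rose was not taken. The 3 IRF2-binding proteins, which lack the core, are among the 8 and among the 21.

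The ligands were hardly measured. Of a list of 21 interferon genes 10 had values, none passed the filter, and the highest value of any was 0.171 FPKM, for Ifng in R24h_T2; Ifng was at 0 in 14 of 18 libraries. The genes of the list without values, Ifnb1 among them, were not analysed here. Receptors were present in sham: Ifnar1 and Ifnar2, the chains of the type I receptor, rose by 0.22 and 0.67, Ifngr1, the ligand-binding chain for interferon gamma, by 0.59, and Il10rb, shared by the interferon lambda and interleukin-10 receptors, by 0.97. Ifngr2 did not pass (0.22, adjusted p = 0.131), and Ifnlr1, the other lambda chain, stayed under 1 FPKM with its highest value of 0.404 FPKM in R24h_C3.

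Of 11 tested signalling genes 6 rose at 24 h, among them Socs3, a feedback inhibitor that many cytokines induce, by 2.84, the phosphatase gene Ptpn6 by 1.44, Stat2 by 0.74, Jak1 by 0.48 and Ptpn11 by 0.26. Of 11 tested sensors and adaptors outside the members 6 rose, with the adaptor Myd88 at 1.57, Tmem173, which encodes STING, at 0.95, Trim25, which activates RIG-I, at 0.81, and Ticam1 at 0.63. Of 28 tested further interferon-induced genes 22 rose, led by Ly6a (2.42), Cxcl10 (2.03), Slfn2 (1.95) and Lgals3bp (1.86). Beside these counts, 19.3% of all genes tested rose. Several of the genes, Cxcl10, Slfn2 and Trim25 among them, were under 1 FPKM in every sham library. Such genes entered the test through the 24 h libraries, where they are high, so the counts do not describe whole lists. None of these 3 lists had a member that fell. Their medians were 0.31, 0.34 and 0.81, beside 0.10 for all genes.

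Marker genes of some other cell types rose at 24 h along with the members, and those of others did not. Summed over all 7 markers of monocytes and macrophages the level was 21.1 to 191 FPKM at 24 h and 4.47 to 7.52 FPKM in sham; for the 6 neutrophil markers it was 7.73 to 201 FPKM at 24 h and 1.83 to 3.35 FPKM in sham. Of the markers tested 4 of 4 rose in the first list and 4 of 5 in the second, beside 19.3% of all genes. Only 2 of the first list and 1 of the second reached 1 FPKM in at least 3 sham libraries. The others entered the test through the 24 h libraries, where they are high. All 5 endothelial markers rose, with a sum of 17.2 to 80.8 FPKM at 24 h and 7.56 to 10.5 FPKM in sham, and so did all 5 meningeal fibroblast markers, with a sum of 10.3 to 48.7 FPKM at 24 h and 3.85 to 7.14 FPKM in sham. Of these, 3 endothelial and 2 fibroblast markers reached 1 FPKM in at least 3 sham libraries, and the others entered through the 24 h libraries. The astrocyte sum was 239 to 497 FPKM at 24 h and 92.8 to 129 FPKM in sham, but it was mostly Gfap, a filament gene of reactive astrocytes, at 150 to 414 FPKM at 24 h and 27.5 to 49.5 FPKM in sham. The other 4 astrocyte markers summed to 59.3 to 88.4 FPKM at 24 h and 65.3 to 80.7 FPKM in sham, and of the 5 only Gfap and Aqp4 (0.34) passed. The microglial sum overlapped between 24 h (76.8 to 122 FPKM) and sham (78.4 to 85.4 FPKM). Of its 6 markers 1 rose and 1 fell. No tested marker rose among T and NK cells (0 of 1), B cells and plasmacytoid dendritic cells (0 of 1) and neurons (0 of 5). The same held for oligodendrocytes (0 of 4) and choroid plexus (0 of 4). In the B cell list 1 marker fell and among neurons 1, beside 785 of all 14589 genes tested. The part of these cells in the result was not tested, and in bulk tissue more cells of a type and more RNA per cell cannot be told apart.

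Most members were higher at 24 h in each arm, while the number of calls was not alike. In the control arm, R24h_C against Sham_C, 35 of 42 tested members rose and 0 fell, beside 19.8% of all genes that rose; in 36 of the 42 the groups did not overlap, beside 36.1% of all genes. Of these 42, 21 fell short of 1 FPKM in at least 1 Sham_C library, so they entered the test through R24h_C, where they are high. Of the 21 that reached 1 FPKM in all 3 Sham_C libraries, 14 rose, beside 17.3% of all such genes, and in 15 the groups did not overlap, beside 34% of all such genes. The median difference was 1.06 over these 21 members and 0.10 over all such genes. In the Tiparp arm, R24h_T against Sham_T, 2 of 35 rose, Gbp2 (2.47 ± 0.25, adjusted p = 0.0277) and Gbp3 (1.70 ± 0.23, adjusted p = 0.047), beside 0.133% of all genes; in 24 of the 35 the groups did not overlap, beside 13.9% of all genes. Gbp2 and Gbp3 were among the 15 members that did not reach 1 FPKM in all 3 Sham_T libraries and so entered the test through R24h_T. Of the 20 that did reach it none passed in limma; 19 differences were positive, all but that of Irf3, with a median of 0.42 beside 0.05 for all such genes, and in 9 the groups did not overlap, beside 12.8% of all such genes. Ifitm3 and Ifitm1 had differences of 3.08 and 2.57 with adjusted p = 0.0522 for both. The difference between the 2 effects was tested by the interaction: 0 of 53 members passed in limma, and 0% of all genes; 5 of the 53 were at an unadjusted p under 0.05, beside 10.9% of all genes, so the arms were not shown to differ.

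One library bore on that count. R24h_T3 was the lowest of the 6 libraries at 24 h in 49 of the 53 members, and in 36.5% of all genes, with a median of 0.35 above its arm's sham mean. The medians were 0.90 and 1.15 in R24h_T1 and R24h_T2, and 1.33, 0.83 and 1.17 in R24h_C1, R24h_C2 and R24h_C3. All these medians include the 29 members that entered the test through the 24 h libraries, and they were not split by this. Without R24h_T3, 22 of 35 members rose in the Tiparp arm, Ifitm3, Isg15 and Igtp among them, beside 5.36% of all genes in the same fit. Of the 35, 15 entered the test through R24h_T, where they are high, Isg15 among them, and the count was not split by this. Without R24h_T2 the count was 1, and without R24h_T1 or any 1 of the 3 sham libraries it was 0. The monocyte and macrophage marker sum was 51.6, 107 and 21.1 FPKM in R24h_T1, R24h_T2 and R24h_T3 and 191, 32.0 and 161 FPKM in R24h_C1, R24h_C2 and R24h_C3, and the part of these cells in the order of the libraries was not tested.

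**Figure D3:**
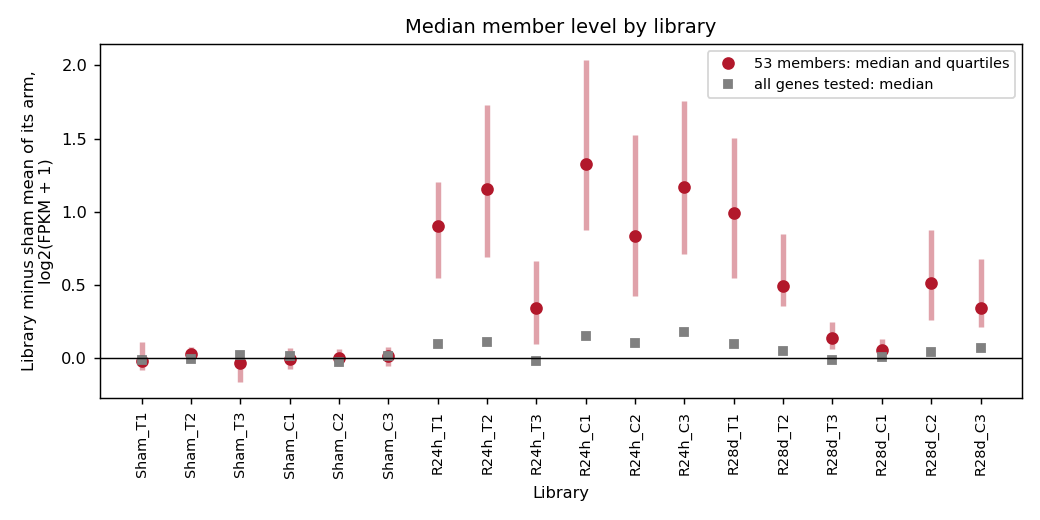
Median level of the 53 members in each library relative to the sham mean of its arm, in log2(FPKM + 1), with quartiles (bars) and, as grey squares, the median of all 14589 genes tested at 24 h. Members sit above the median of all genes in all 6 libraries at 24 h, with R24h_T3 lowest at 0.35, and at 28 d they range from 0.06 in R28d_C1 to 0.99 in R28d_T1. The 53 include 29 members that entered the test through the 24 h libraries, where they are high, which favours medians above sham at 24 h.

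Direct comparison of the arms gave no member that passed at 24 h. In R24h_T against R24h_C 0 of 53 passed in limma, and 0% of all genes; 3 of the 53 were at an unadjusted p under 0.05, beside 7.22% of all genes. The difference was negative in 51 of 53 members, beside 63.6% of all genes, with a median of -0.34 over members and -0.08 over all genes. Ifitm1 was at 17.8, 16.3 and 5.74 FPKM in R24h_T and at 33.6, 19.2 and 35.5 FPKM in R24h_C (-1.18 ± 0.42, adjusted p = 0.668). Ifitm10 was at 2.90, 2.26 and 1.97 FPKM in R24h_T and at 4.04, 3.14 and 3.41 FPKM in R24h_C (-0.43 ± 0.16, adjusted p = 0.668). In these 2 of the 53 members all libraries of R24h_T lay below all of R24h_C, beside 8.78% of all genes, and in no tested member did they all lie above. Without R24h_T3 the median over members was -0.10 and 35 of 53 differences were negative, and without R24h_C1 the median was -0.20.

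In sham cortex 0 of 24 tested members passed between the arms in limma, beside 0.21% of all genes; 5 of the 24 were at an unadjusted p under 0.05, beside 12.8% of all genes. Ifitm3 was at 3.45, 4.23 and 3.86 FPKM in Sham_T and at 2.57, 2.46 and 2.96 FPKM in Sham_C (0.40 ± 0.09, adjusted p = 0.179), and Ifitm2, of the same family, was at 9.58, 7.69 and 7.21 FPKM in Sham_T and at 10.9, 11.6 and 10.9 FPKM in Sham_C (-0.41 ± 0.10, adjusted p = 0.198). Ifitm3 was higher and Ifitm2 lower in the Tiparp arm without overlap. Over the 24 members tested all Sham_T libraries lay above all Sham_C libraries in Ifitm3 and Ifit3 and below in Ifitm2, beside 10.6% of all genes above and 8.85% below.

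At 28 d 0 members passed against sham in any comparison. Over both arms 0 of 37 tested passed in limma, with a lowest adjusted p of 0.129, beside 0.00702% of all genes; 28 of the 37 were at an unadjusted p under 0.05, beside 17.3% of all genes. Of the 37, 13 reached 1 FPKM in fewer than 3 sham libraries and entered the test through the 28 d libraries. Over the other 24 the median difference was 0.34 and 22 were positive, beside a median of 0.03 for all such genes. Ifitm3 was at 47.6, 21.6 and 7.33 FPKM in R28d_T and at 3.70, 19.99 and 13.8 FPKM in R28d_C, against the sham values given above (1.87 ± 0.41, adjusted p = 0.129). Ifit3 was at 13.7, 9.23 and 5.93 FPKM in R28d_T and at 4.86, 8.23 and 6.98 FPKM in R28d_C (0.86 ± 0.16, adjusted p = 0.129). In Ifit3, Isg15, Oasl2, Gbp3, Irf8 and Ddx58 all 6 libraries at 28 d lay above all 6 sham libraries, 6 of 37 members beside 1.19% of all genes. All but Ifit3 are among the 13 that entered through the 28 d libraries, which leaves 1 of 24 beside 0.817% of all such genes. In Ifitm3, R28d_C1 lay inside the sham range.

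Within the arms at 28 d, 0 of 26 members passed in R28d_T against Sham_T in limma, beside 0.0148% of all genes; 14 of the 26 were at an unadjusted p under 0.05, beside 10.5% of all genes. In R28d_C against Sham_C 0 of 24 passed in limma, beside 0.0522% of all genes, and 8 of the 24 were at an unadjusted p under 0.05, beside 11.5%. Of these, 6 of the 26 and 3 of the 24 did not reach 1 FPKM in all 3 sham libraries of the arm. Between R28d_T and R28d_C 0 of 37 passed in limma beside 0% of all genes, and 0 were at an unadjusted p under 0.05 beside 2.52%. The median difference was 0.30 with 32 differences positive, beside a median of 0.02 and 55% positive for all genes. Without R28d_T1 the median over members was 0.07 and 25 of 37 were positive, and without R28d_T3 it was 0.55 with all 37 positive. In the interaction 0 of 37 passed in limma beside 0.00702% of all genes, and 1 was at an unadjusted p under 0.05 beside 4.84%.

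The 28 d libraries of an arm lay far apart. R28d_T1 was the highest of the 6 in 32 of 37 members (36.4% of all genes) and R28d_C1 the lowest in 27 of 37 (25% of all genes). Over both arms 17 of 37 members rose without R28d_C1, beside 3.24% of all genes in the same fit, and 21 of 37 without R28d_T3, beside 6.98%. Without any other single library, or without the libraries high in Ttr, that count was 0. R28d_C1 and R28d_T3 had the lowest member medians, so leaving out either favours a rise. In the control arm 7 of 24 rose without R28d_C1, beside 1.24% of all genes, and in the Tiparp arm 9 of 26 without R28d_T3, beside 4.39%. Of the members tested, 13 of the 37, 3 of the 24 and 6 of the 26 entered through 28 d libraries, where they are high. The counts were not split by this. The monocyte and macrophage sum was 609, 193 and 19.3 FPKM in R28d_T1, R28d_T2 and R28d_T3 and 7.39, 126 and 131 FPKM in R28d_C1, R28d_C2 and R28d_C3, and Gfap was at 886, 533 and 96.8 FPKM and at 37.8, 407 and 165 FPKM in the same libraries. Both values were lowest in R28d_C1 and R28d_T3, the libraries with the lowest member medians. The other 4 astrocyte markers summed to 71.0 to 152 FPKM at 28 d and 65.3 to 80.7 FPKM in sham, and 0 of the 5 astrocyte markers and 0 of the 2 tested monocyte and macrophage markers passed at 28 d in limma. The part of these cells in the result was not tested.

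**Figure D4:**
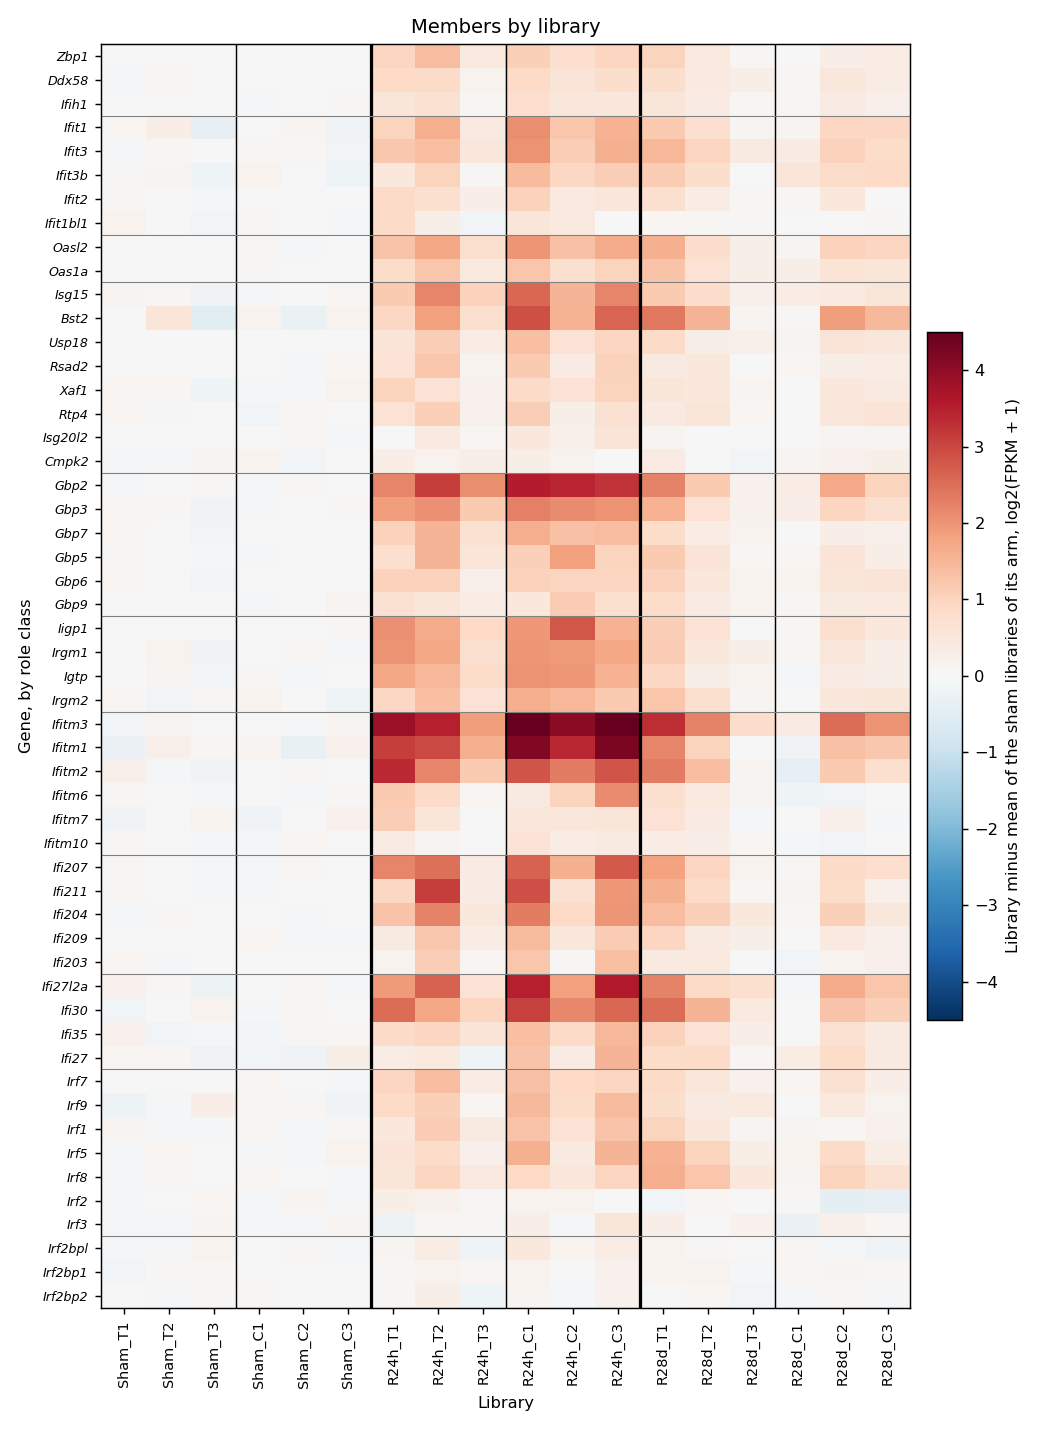
Each of the 53 tested members (rows, grouped by role class) in each of the 18 libraries (columns), as the difference from the sham mean of the library's arm in log2(FPKM + 1); red is higher and blue lower. Rows are red across most 24 h libraries and pale in R24h_T3, R28d_T3 and R28d_C1, and the rows of the IRF2-binding proteins, Irf2 and Irf3 are pale throughout. The rows include 29 members that entered the test through the 24 h libraries, where they are high.

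Part of the members were lower at 28 d than at 24 h. Over both arms, 28 d against 24 h, 8 of 53 tested members were lower and 0 higher, beside 1.5% of all genes that were lower. They were Ifitm1 (-2.32), Gbp2 (-1.82), Iigp1 (-1.31), Igtp (-1.28), Irgm1 (-1.22), Gbp3 (-1.20), Isg15 (-1.20) and Gbp7 (-0.96), so that 6 of the 8 were guanylate-binding proteins or immunity-related GTPases. Gbp2 was at 6.21, 2.53 and 0.773 FPKM in R28d_T and at 0.606, 3.15 and 1.53 FPKM in R28d_C, and R28d_T1 overlapped the 24 h range. Igtp was at 4.45, 2.39 and 2.22 FPKM in R28d_T and at 1.48, 2.35 and 2.08 FPKM in R28d_C (-1.28 ± 0.21, adjusted p = 0.0191), overlapping with 24 h only through R28d_T1 and R24h_T3. Isg15 was at 2.69, 1.81 and 0.941 FPKM in R28d_T and at 0.840, 0.992 and 1.12 FPKM in R28d_C. Of the 53, 16 reached 1 FPKM in fewer than 3 libraries at 28 d, Iigp1 among them, and entered the test through the 24 h libraries, where they are high. Of the other 37, 7 were lower, beside 1.24% of all such genes, and 36 differences were negative, with a median of -0.51 beside -0.05 for all such genes. With median-ratio scaling 4 of 52 differences were positive and the same 8 were called.

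This count rested on single libraries. It was 27 without R24h_T3, beside 13.1% of all genes that were lower in the same fit, and 12 without R28d_T1, beside 3.02%. It was 3 without R24h_T1, 1 without R24h_C2, R28d_C1 or R28d_T3, and 0 without R24h_C1, R24h_T2, R28d_C2, R28d_C3 or R28d_T2. None of the 8 was called without every library in turn. All these counts are over the 53 members, of which 16 entered the test through the 24 h libraries.

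Irf8 was the exception in direction. It was at 3.86, 2.72 and 1.17 FPKM in R28d_T and at 0.712, 2.16 and 1.49 FPKM in R28d_C, against 1.29, 2.04 and 1.14 FPKM in R24h_T and 1.93, 1.25 and 2.08 FPKM in R24h_C, a difference of 0.14 between 28 d and 24 h (adjusted p = 0.734). The microglial marker sum was 85.0 to 202 FPKM at 28 d and 76.8 to 122 FPKM at 24 h, with 1 of 6 markers higher at 28 d. Its part in the level of Irf8 was not tested.

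The share of the 24 h rise that was present at 28 d describes the same values by class, with the sham mean taken from both. For the 44 members that rose it had a median of 34.6%, in mean FPKM over 6 libraries. It was 11.8% for Ifitm6, 12.5% for Ifitm1, 13.5% for Igtp and 16.8% for Iigp1, and 66.2% for Bst2, 80.3% for Irf5, 80.9% for Ifit3b and 138% for Irf8. By class the median was 17.4% for the immunity-related GTPases, 24.1% for the IFITM proteins, 29.4% for the PYHIN genes and 30.1% for the guanylate-binding proteins. It was 37.6% for the IRFs, 40.2% for the MX and ISG group and 41.3% for the other Ifi genes, and 49.0% for the IFIT proteins, 49.8% for the nucleic acid sensors and 54.3% for the OAS genes. The 44 members were chosen by their 24 h values, and the same values form the base of the share. A lower value at 28 d was therefore favoured beforehand. The share over all genes that rose at 24 h was not taken. These shares carry no test, and each rests on 28 d libraries that differ widely.

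**Figure D5:**
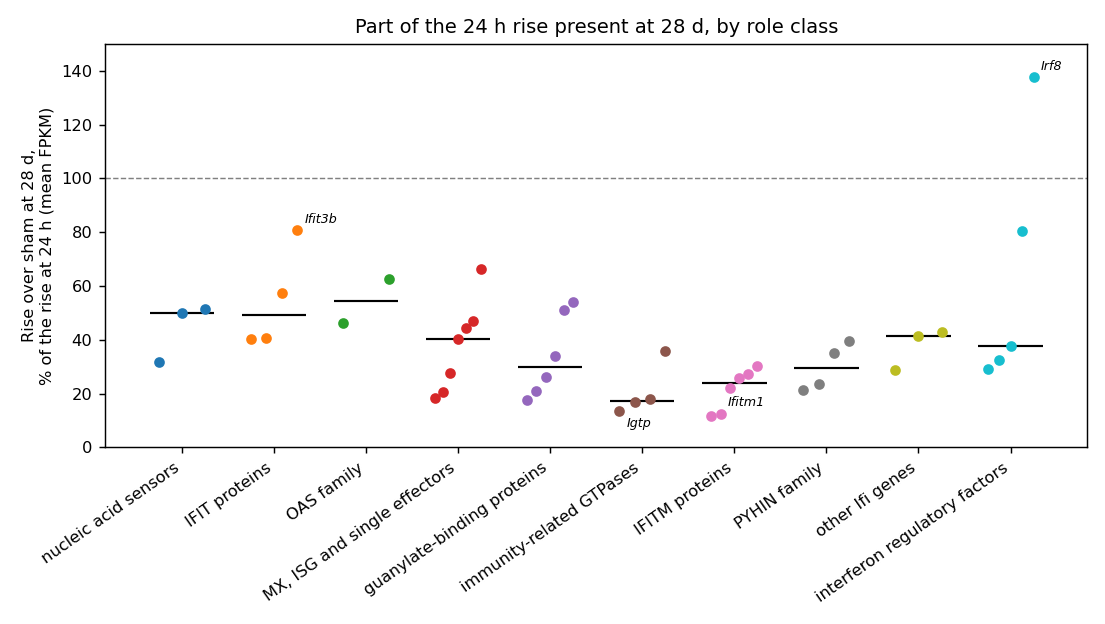
Rise over sham at 28 d as a percentage of the rise at 24 h, from mean FPKM over both arms (6 libraries a condition), for the 44 members that rose at 24 h, by role class; horizontal bars are class medians and the dashed line marks 100%. The immunity-related GTPases have the lowest class median, 17.4%, and Irf8 alone lies above the line. The members were chosen by the same 24 h values, which favours points below the line.

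Of the 31 members that were not tested at 24 h, 29 had a higher mean at 24 h than in sham, and 5 of all 84 stayed under 0.1 FPKM. Most of these means were low, and the highest at 24 h were those of Ifi47 (0.887 FPKM, against 0.0433 FPKM in sham), Oas1c (0.874 FPKM, against 0.590 FPKM in sham), Isg20 (0.804 FPKM, against 0.154 FPKM in sham) and Oas1b (0.746 FPKM, against 0.0877 FPKM in sham). They carry no test. The share of all untested genes with a higher mean at 24 h was not taken, so the 29 of 31 cannot be set against it. Of all genes tested at 24 h over both arms, 64.8% had a positive difference.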

How the data were processed

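The deposited table of the authors holds FPKM per gene for 18 libraries; the tools named in the submitters' processing notes are HISAT, StringTie and edgeR, with build mm9 and no versions. Members and gene lists were chosen with earlier results of these data known. log2(FPKM + 1) was tested two-sided with limma 3.58.1 (trend, empirical Bayes; R 4.3.3) on the libraries of the groups compared, with the arm as a term where both arms entered. Genes needed 1 FPKM in at least 3 libraries, and p was adjusted over all of them at 0.05. Tiparp was compared by exact permutation. Values in every library, or the lowest, median and highest, are given for the member with the largest called difference and the one with the highest mean in each role class; others were added after their values were seen. Cell type markers and pathway genes came from fixed lists. Shared 50-base words were counted in GENCODE M21 transcripts, used for names only, and promoters came from RefSeq GRCm38.p6. Python 3.11.15, pandas 2.3.3 and matplotlib 3.10.9 were used, and the code was tested on simulated data. Libraries of a group correlated at r of 0.969 to 0.992 across genes and none were identical. Replicate numbers did not pair the libraries: in 0 of 15 pairs of groups was every same-number r over 0.1 (-0.429 to 0.233). The results were recomputed with a pseudocount of 0.1, without the filter, with median-ratio scaling, a replicate block, 1 fit of all 18 libraries, leaving out each library, and leaving out those high in Ttr. Values of some genes are not reported here.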

Additional observations from a re-analysis of the deposited data

Results flagged for a closer look

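Ifitm10 lay on opposite sides of the sham mean in the arms at 28 d, although neither arm passed against its own sham: R28d_T had 2.82, 2.75 and 2.23 FPKM, all above the Sham_T mean, and R28d_C had 2.17, 1.99 and 2.26 FPKM, all below the Sham_C mean. The interaction was 0.32 ± 0.12 on the log2(FPKM + 1) scale, with an adjusted p of 0.956 in limma (unadjusted p = 0.0206), so the difference did not pass.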

How the results depend on the processing

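Over both arms at 24 h, 40 of the 44 calls were also made without each library in turn, with 40 to 48 members called, and 33 without the 3 libraries high in Ttr (Sham_T1, Sham_T2 and R24h_C3); the control arm gave 24 to 37. With median-ratio scaling 40 and 29 were called, with the replicate block 43 and 30.

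For R24h_T against Sham_T, with 2 calls, a pseudocount of 0.1 gave 5, scaling 4, the replicate block 8, 1 fit of all 18 libraries 8, no filter 0, and leaving out the libraries high in Ttr 0. Leaving out single libraries gave 0 to 22. For 28 d against 24 h, with 8 calls, no filter gave 0, 1 fit of all libraries 22, the replicate block 6, and leaving out all 4 libraries high in Ttr (R28d_T2 included, chosen after seeing the data) 0; single libraries gave 0 to 27. Against sham at 28 d single libraries gave 0 to 7 in the control arm, 0 to 9 in the Tiparp arm and 0 to 21 over both arms. The cause was not tested. Comparisons between the arms and interactions gave 0 calls under all alternatives run. The replicate block changed no other count of calls by more than 1.5 times.

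The Tiparp difference between the arms, without single libraries, was -0.014 to 0.12 in sham, where it reversed without Sham_C3, and -0.056 to 0.071 at 28 d, where it reversed to 0.071 without R28d_C1 and to 0.025 without R28d_T3. Of 1385 values of single genes under alternatives 1181 kept direction and call, 204 lost the call and 0 reversed. FPKM gives no read totals, so no counting error could be set on low genes.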
